A study of Mus musculus with 10 samples.

Results

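The cells described are articular-like *Grem1*-lineage cells with little *Col10a1*, called *Col10a1*-low cells below. They were chosen by measured values: at least 350 genes with a UMI (a unique molecular identifier, which marks each captured cDNA molecule so that PCR copies are counted once), a sum of *Clu*, *Cilp* and *1500015O10Rik* UMIs that made up at least 2.5% of the cell's UMIs and was above its *Cnmd* UMIs, and under 5 *Col10a1* UMIs. This left 248 of 684 *Grem1*-lineage cells, and 248 of 844 cells of the series. The *Grem1*-lineage cells came from *Grem1-TdT* mice, which carry a tamoxifen-inducible Cre (*Grem1-creERT*) and a TdTomato reporter, so that red cells are those that used the *Grem1* driver during induction, and their descendants. The mice were 5 to 6 weeks old when tamoxifen chow was started, and were fed it for 2 weeks. Articular cartilage (AC) and growth plate (GP) were excised from hind limbs and digested, and live TdTomato+ single cells were sorted into 96-well plates, 1 cell per well, with no marker to exclude other lineages. There are 8 such plates (1, 2, 4, 5, 6, 7, 8 and 9), and the labels do not say which hold AC, GP or both, nor how many mice each plate represents. Cells of *Lepr-TdT* mice (160 cells on 2 plates), age-paired to the *Grem1-TdT* mice, labelled by a Cre that needs no tamoxifen and sorted from whole bone after removal of blood and vessel cells, were the other lineage. Their table lists 50508 genes against 29183 in the *Grem1* table. Over all of its genes, 0 of the 160 cells met the rule (highest summed share 1.97%), but over the 29183 genes that both tables list, 77 cells had at least 350 genes and 2 of them met it (highest share 4.41%).

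Articular cartilage is the smooth, avascular tissue that covers the ends of bones in a joint, and its surface cells produce lubricating and matrix-organising proteins. Growth plate cartilage instead passes through columns of dividing cells to hypertrophic chondrocytes, which produce collagen X, the product of *Col10a1*, before bone replaces them. The paper also reports *Col10a1* as a marker of an AC cluster of *Grem1*-lineage cells, and *Clu* as a marker of another. *Clu* encodes clusterin, a secreted chaperone, *Cilp* encodes cartilage intermediate layer protein, and *1500015O10Rik* (RefSeq name *Ecrg4*) encodes a secreted precursor peptide. *Cnmd* encodes chondromodulin, a cartilage protein that hinders vessel growth.

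The stretches before the transcription starts of *Cilp* and *1500015O10Rik*, which were among the genes that chose the cells, are shown with those of *Creb5*, a marker given for these cells that encodes a bZIP transcription factor. *Clu*, *Cnmd* and *Col10a1* are not shown. Each stretch is 250 bases long, from RefSeq on GRCm38.p6, written 5′ to 3′ on the gene's strand (the plus strand in each case). Capitals mark matches, on either strand, to 3 motifs: the cyclic AMP response element TGACGTCA, the AP-1 motif TGANTCA and the forkhead motif TGTTTAC. None of the 3 contains another.
*Cilp*, chr9:65264930-65265179, plus strand: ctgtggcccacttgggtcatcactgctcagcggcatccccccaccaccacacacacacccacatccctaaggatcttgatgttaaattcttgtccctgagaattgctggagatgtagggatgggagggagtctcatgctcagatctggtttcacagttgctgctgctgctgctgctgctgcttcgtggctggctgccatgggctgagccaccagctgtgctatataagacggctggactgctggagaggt
*1500015O10Rik*, chr1:43730352-43730601, plus strand: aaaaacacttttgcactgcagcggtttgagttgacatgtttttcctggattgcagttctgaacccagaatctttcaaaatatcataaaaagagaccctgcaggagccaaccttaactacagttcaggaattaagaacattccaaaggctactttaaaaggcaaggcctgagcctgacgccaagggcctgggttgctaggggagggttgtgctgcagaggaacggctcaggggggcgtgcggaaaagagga
*Creb5*, start 1, chr6:53287053-53287302, plus strand: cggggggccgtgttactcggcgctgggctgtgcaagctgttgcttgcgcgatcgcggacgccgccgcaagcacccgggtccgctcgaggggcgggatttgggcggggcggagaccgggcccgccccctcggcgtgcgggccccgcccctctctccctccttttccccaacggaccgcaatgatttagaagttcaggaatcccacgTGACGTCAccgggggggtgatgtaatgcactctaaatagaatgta
*Creb5*, start 2, chr6:53573124-53573373, plus strand: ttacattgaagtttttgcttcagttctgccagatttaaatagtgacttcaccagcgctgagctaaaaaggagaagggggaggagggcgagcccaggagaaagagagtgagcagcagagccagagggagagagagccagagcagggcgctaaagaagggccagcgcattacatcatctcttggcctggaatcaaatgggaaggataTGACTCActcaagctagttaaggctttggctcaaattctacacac
The stretches of *Cilp* and *1500015O10Rik* hold none of the 3 motifs. Those of *Gas1*, *Angptl7*, *Cilp2*, *Cytl1*, *Crim1* and *Cdon*, which are named below and not shown here, hold none either. The first start of *Creb5* holds the response element and the second the AP-1 motif, each beginning 45 bases before the start. Over all 27025 genes with such a stretch, the response element is found in 1.77%, the AP-1 motif in 7.82% and the forkhead motif in 3.54%. Only 515 of the 980 genes tested below had a stretch, so a count of motifs over the tested genes would be void and none is given.

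The 8 plates hold between 133289 and 179071 UMIs in kept cells. The *Grem1* table used here ends within the genes whose symbols begin with Gm, so lubricin (*Prg4*), *Sox9*, *Grem1* and every symbol later in the alphabet were not analysed here. For *Grem1*-lineage cells, UMIs and genes per cell, shares of UMIs (also that of the rule) and CPM are over the listed genes alone. Of 12 articular cartilage markers, 9 are listed, of which 5 were given with the rule. The other 4 were *Cilp2*, *Erg*, *Gdf5* and *Dkk3*. *Cilp2* was detected in 73.8% of *Col10a1*-low cells and 35.3% of the other *Grem1*-lineage cells, and *Erg*, a transcription factor of joint cartilage, in 15.7% and 6.88%. *Dkk3* had 28 UMIs in *Col10a1*-low cells against 10 in the more numerous others, and *Gdf5*, a joint morphogen, 11 against 4. These values do not go against the name articular-like. Of the 4 endothelial markers, *Emcn*, *Egfl7* and *Cldn5* were at 0 in *Col10a1*-low cells and *Cdh5* had 1 UMI. Of the 5 marrow stroma markers, *Adipoq*, *Esm1* and *Gdpd2* were at 0 in *Col10a1*-low cells, *Ebf3* had 3 UMIs and *Cxcl12* had 9 UMIs in 5 cells. The summed level of the 3 listed haematopoietic markers (*Elane*, *Camp* and *Cd74*) ranged from 0 to 4118 CPM over plates in *Col10a1*-low cells, and from 8.28 to 3943 CPM in the others. CPM are counts per 1000000 UMIs of a plate's summed cells after TMM scaling, which corrects for a few abundant genes. A single cell held 87.6% of the 97 *Camp* UMIs of *Col10a1*-low cells. The 3 listed markers of synovial and tendon fibroblasts (*Col3a1*, *Dpt* and *Cd34*) summed to 72.2 to 589 CPM in *Col10a1*-low cells and to 19.1 to 119 CPM in the others, and *Dpt* was seen in 22 *Col10a1*-low cells. Their part in the results was not tested.

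*Col10a1*-low cells made up 43.5%, 49.4% and 56.4% of the kept cells of plates 1, 2 and 4. On plates 5 to 9 they made up 22.2%, 24.1%, 31.0%, 27.6% and 33.7%. The mean over plates was 36.0% ± 12.4 (SD, n = 8), and the share was higher on plates 1, 2 and 4 than on any other plate. The cells that passed the same limits but had 5 or more *Col10a1* UMIs, called *Col10a1*-high cells below, were 7, 3 and 4 on plates 1, 2 and 4, and between 10 and 19 on plates 5 to 9 (89 in all). The remaining 347 cells fell below the limit on the summed share. No cell that passed that limit was lost for its *Cnmd* UMIs. These shares follow from the rule and are given without a test.

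**Figure D1:**
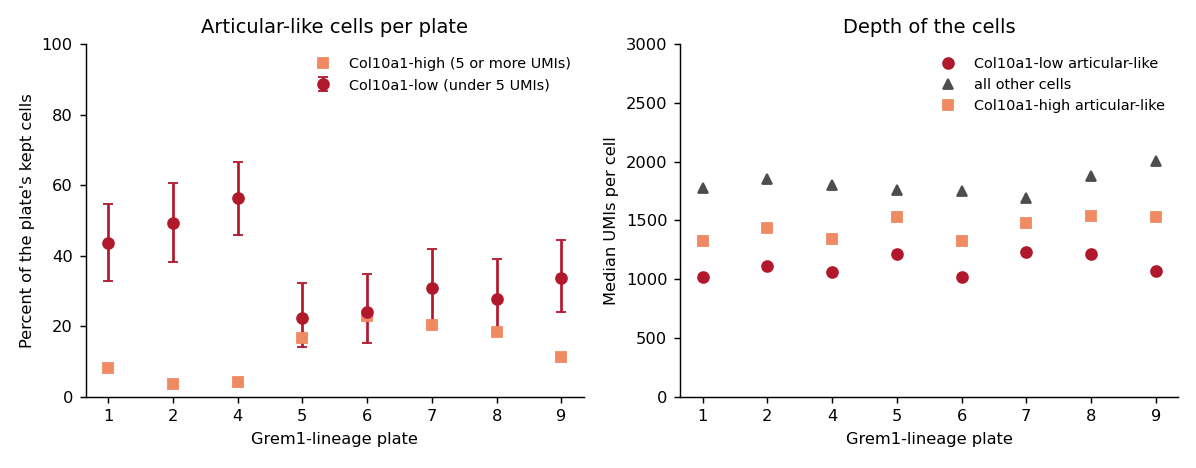
The left plot gives the percent of each plate's kept cells that were *Col10a1*-low (circles, with 95% Clopper-Pearson intervals) or *Col10a1*-high (squares), and the right plot the median UMIs per cell on a linear axis. *Col10a1*-low cells were between 22.2% and 56.4% of a plate and had fewer UMIs than the other cells on each of the 8 plates.

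The *Col10a1*-low cells were the shallower ones. Their median was 1117.5 UMIs and 495.5 genes per cell, against 1820.5 UMIs and 754 genes in all other *Grem1*-lineage cells, 1440 UMIs in *Col10a1*-high cells and 2006 UMIs in cells below the limit. The median was lower on 8 of 8 plates, by 0.70 ± 0.15 on the log2 scale (mean and SD over plates). No test is given, since the UMIs of a cell are the denominator of the share in the rule. These UMIs and genes per cell, and the matched depth below, cover the listed genes alone. Fewer molecules of the listed genes in the cell and a poorer capture of them cannot be told apart. Since a raw limit of 5 *Col10a1* UMIs is also easier to stay under in a shallow cell, each comparison below was repeated at matched depth, with the compared cells limited to those between the 10th and the 90th percentile of UMIs of the *Col10a1*-low cells of their plate. Where a gene could be tested at matched depth, its value is given if it ends a call, turns a direction or differs by more than 1.5 times in fold. No value at matched depth exists against all other cells for *Cdon*, *Dbp*, *Fhl1*, *Dab2*, *Cp*, *Carmil1*, *Ddah1*, *Col8a2*, *Ctsa*, *Ctsh*, *Fgfr3*, *C1qtnf3*, *Angptl2*, *Epyc*, *Clec11a*, *Emilin1*, *Col12a1*, *Col1a1*, *Bglap*, *Bglap2*, *Alpl*, *Cdk6*, *Fscn1*, *Fam180a* or *Gm37788*.

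The genes that chose the cells are given as a description. *Clu* was between 12783 and 31283 CPM (median 22044) in *Col10a1*-low cells and between 1487 and 4278 CPM (median 2768) in all others. It was highest on plates 1, 2 and 4, at 27270, 29398 and 31283 CPM. *Cilp* averaged 14511 ± 4262 CPM against 2980 ± 1268 CPM (mean ± SD, n = 8), and *1500015O10Rik* 18200 ± 4824 CPM against 6646 ± 3659 CPM. *Cilp* and *1500015O10Rik* ran the other way over plates: both were lower on plates 1, 2 and 4 (at most 11960 and 15215 CPM) than on each of plates 5 to 9 (at least 13896 and 17773 CPM). The given markers *Abi3bp*, a matrix-binding protein gene, and *Creb5* were 4.56 and 4.87 times as high as in the other cells. They differed less from *Col10a1*-high cells on plates 5 to 9, at 840 ± 217 against 733 ± 350 CPM and 513 ± 171 against 374 ± 115 CPM. Each was higher on 4 of 5 plates there, and the groups overlapped. *Cnmd* averaged 4902 CPM against 18748 CPM in all others, and *Col10a1* 797 CPM against 3740 CPM. Set against *Col10a1*-high cells on plates 5 to 9, *1500015O10Rik* was lower on 5 of 5 plates (17981 ± 2286 against 29735 ± 7241 CPM). *Cilp* was lower on 4 of 5 (14174 against 16811 CPM), and *Clu* higher on 4 of 5 (15336 against 13081 CPM). Of the 248 cells, 137 had no *Col10a1* UMI, 66 had 1 and 10 had 4, while 9 *Col10a1*-high cells had 5. At the other limit, 40 kept cells had a summed share from 2.5% to 3% (median 2.74%) and 19 from 2% to 2.5% (median 2.33%).

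All 3 genes were detected in 233 of the 248 cells (94.0%), but the gene with the most UMIs differed between cells. It was *Clu* in 126 cells, *1500015O10Rik* in 64 and *Cilp* in 46, with ties in 12. On plates 1, 2 and 4, *Clu* led in 67.6%, 65.9% and 71.7% of cells. On plates 5 to 8 it led in 19.0% to 35.0%, and on plate 9 in 50%. Summed over the cells of each kind, *Gas1* was at 3939 CPM where *Clu* led, 5581 CPM where *Cilp* led and 2482 CPM where *1500015O10Rik* led (here without TMM scaling). *Dcn* was at 23797, 15619 and 21674 CPM in the same order, *Comp* at 7167, 3989 and 7472 CPM, and *Crim1* at 395, 543 and 655 CPM. Cells led by *Cilp* were thus lowest in *Dcn* and *Comp* and highest in *Gas1*. The kinds of cell came from different plates in different shares, so these sums differ by plate as well as by leading gene.

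**Figure D2:**
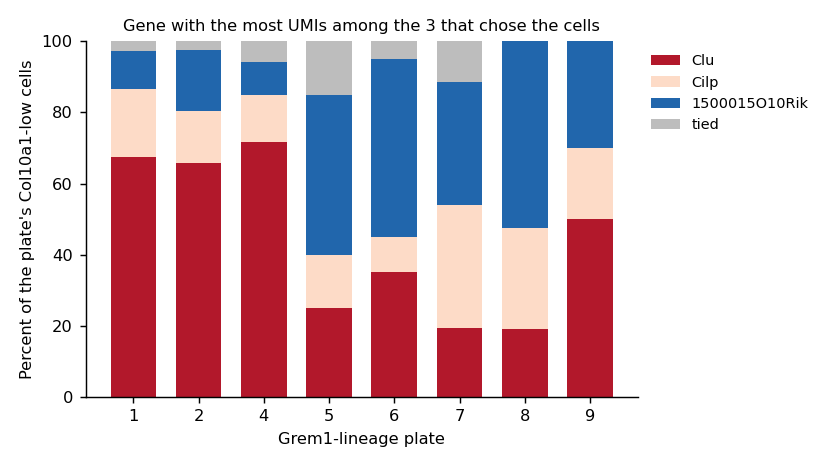
Stacked bars give, for each plate, the percent of *Col10a1*-low cells in which *Clu*, *Cilp* or *1500015O10Rik* had the most UMIs, with ties in grey. *Clu* led in 65.9% to 71.7% of cells on plates 1, 2 and 4 and in at most 50% on plates 5 to 9.

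Among the genes that the *Grem1* table lists, which stop within symbols beginning with Gm, the most abundant in *Col10a1*-low cells was *Cytl1*. This gene encodes cytokine-like protein 1, a secreted protein. It took 14.5% ± 2.57 of their UMIs of listed genes (SD, n = 8 plates, lowest 11.8%, highest 19.1%), against 5.40% ± 1.17 in all other cells. It was followed by *Cst3* (2.74%), *Chad* (2.70%), *Dcn* (2.25%) and *Clu* (2.11%). *Col2a1*, the gene of cartilage collagen II, ranked 8 with 1.5%, whereas it ranked 1 in all other cells with 5.46%. The 15 most abundant of the listed genes together held 34.8% of the UMIs of listed genes.

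Against all other *Grem1*-lineage cells, UMI sums of each plate were compared for 980 genes, leaving out the 5 genes of the rule and the 2 given markers. With edgeR at a Benjamini-Hochberg adjusted p of 0.05, 379 genes differed (38.7% of those tested), 195 higher (19.9%) and 184 lower (18.8%) in *Col10a1*-low cells. The cells were sorted into groups by genes of the same transcriptomes, so the number of calls reflects how the groups were chosen as well as the genes. Groups did not overlap over plates for 75 of the 980 genes (7.65%). At matched depth, 168 of the 436 compared cells remained, of which 63 were *Col10a1*-high cells (89 before), so the mix of compared cells and the number of tested genes changed along with depth, and 34 of 345 genes differed (20 higher, 14 lower). The median log2 fold change over all 980 genes was -0.01.

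**Figure D3:**
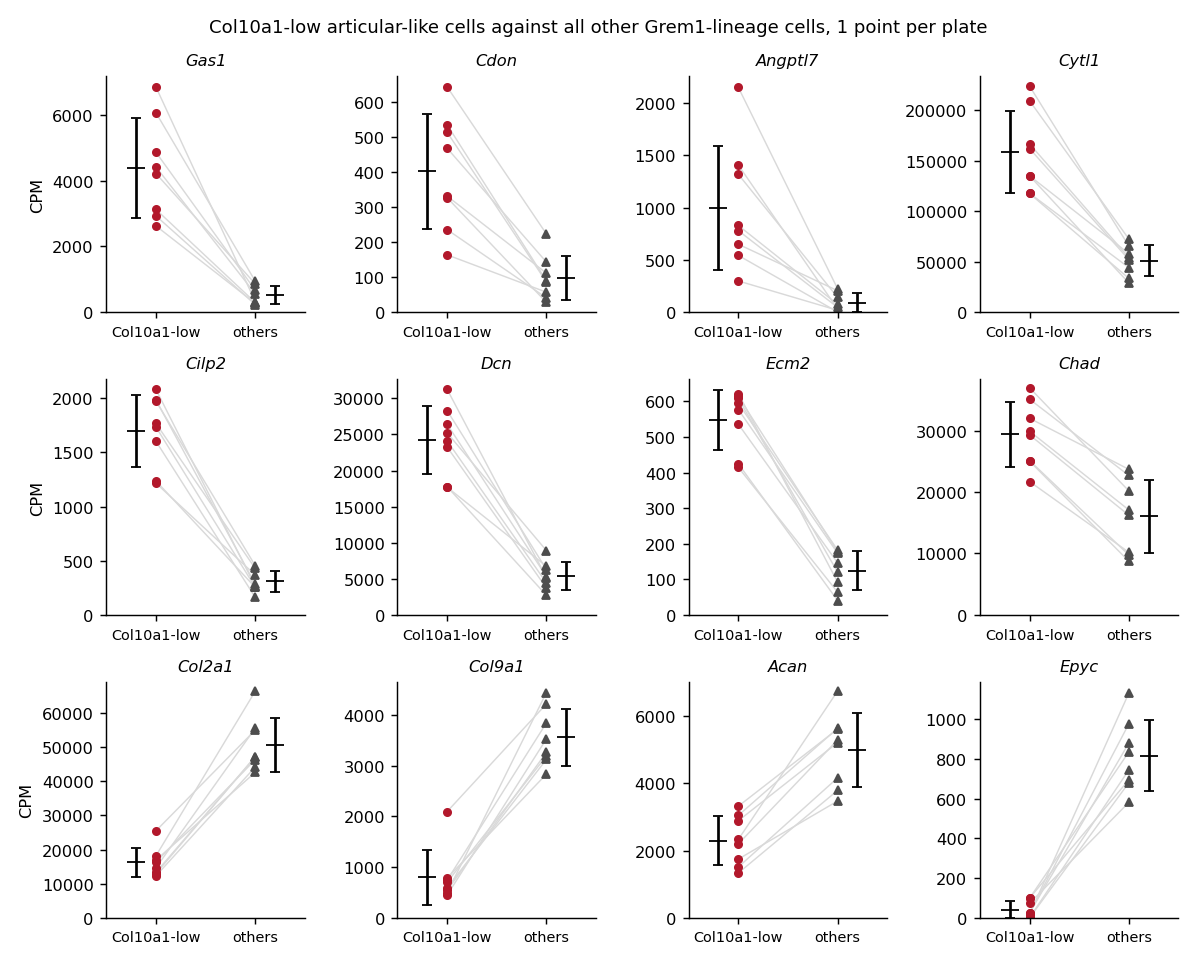
Each panel gives the CPM of a gene (linear axis from 0) in the summed *Col10a1*-low cells and the summed other *Grem1*-lineage cells, with a grey line joining the sums of a plate and bars for mean ± SD over 8 plates. *Gas1*, *Angptl7*, *Cytl1*, *Cilp2*, *Dcn* and *Ecm2* were higher, and *Col2a1*, *Col9a1*, *Acan* and *Epyc* lower, without overlap between the groups, while the groups of *Cdon* and *Chad* overlapped.

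Among secreted signals, 11 of the 36 listed genes were abundant enough to test, of which 5 were higher, 2 lower and 4 not called (median log2 fold change 0.32). Over all 980 genes tested, 19.9% were higher and 18.8% lower, with a median of -0.01. *Angptl7*, a secreted angiopoietin-like protein gene, was between 297 and 2153 CPM (median 805) in *Col10a1*-low cells and between 0 and 223 CPM (median 58.7) in all others. The groups did not overlap, and the log2 fold change was 3.56 ± 0.305 (SE; edgeR adjusted p = 1.06e-08), or 2.85 at matched depth. Only 39 of the 248 cells held an *Angptl7* UMI, and 1 cell held 12.6% of them. *Cytl1* ranged from 117463 to 223873 CPM against 28813 to 72393 CPM, also without overlap, with a log2 fold change of 1.66 ± 0.117 (edgeR adjusted p = 5.49e-10). At matched depth its difference was 0.30 and no longer passed (edgeR adjusted p = 0.186). *Ctgf*, a matricellular growth factor gene, was higher on 8 of 8 plates (4597 ± 3071 against 1980 ± 1295 CPM, 1.17 ± 0.149 on the log2 scale, edgeR adjusted p = 2.08e-06, 0.52 at matched depth), but without the plate as a block its adjusted p was 0.0696. *Bmp2*, a bone morphogenetic protein, had a log2 fold change of 1.51 ± 0.322, against 0.18 at matched depth, and *Frzb*, an extracellular Wnt antagonist, 0.90 ± 0.225, which turned to -0.66 at matched depth. Neither passed at matched depth (edgeR adjusted p = 0.796 and 0.114). The 2 lower genes were *C1qtnf3*, at 121 ± 127 CPM against 1186 ± 962 CPM, and *Angptl2*, at 250 ± 166 CPM against 536 ± 185 CPM.

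The non-collagenous matrix genes divided. Of 17 tested, 6 were higher, 7 lower and 4 not called, with a median log2 fold change of 0.06. Of all genes tested, 19.9% were higher and 18.8% lower. *Dcn*, which encodes the collagen-binding proteoglycan decorin, ranged from 17689 to 31257 CPM (median 24668) in *Col10a1*-low cells and from 2713 to 8913 CPM (median 5247) in all others. This was a difference of 2.22 ± 0.148 on the log2 scale (edgeR adjusted p = 3.20e-10), and of 0.94 at matched depth. *Cilp2*, the paralogue of *Cilp*, ranged from 1217 to 2082 CPM against 162 to 455 CPM (2.49 ± 0.169, edgeR adjusted p = 3.93e-10, 1.26 at matched depth). *Ecm2*, a matrix protein gene, ranged from 415 to 622 CPM against 40.4 to 182 CPM (2.19 ± 0.212, 0.93 at matched depth). None of these 3 genes overlapped between the groups. *Chad*, which encodes chondroadherin, and *Comp*, the gene of cartilage oligomeric matrix protein, differed by less, with log2 fold changes of 0.95 ± 0.121 and 0.75 ± 0.112. *Chad* was at 0.05 at matched depth, whereas *Comp* stayed at 0.71. *Fmod*, which encodes fibromodulin, was also higher (4718 ± 1011 against 3321 ± 967 CPM).

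The lower matrix genes included *Acan*, the gene of aggrecan, the main proteoglycan of cartilage. It was between 1331 and 3320 CPM in *Col10a1*-low cells and between 3474 and 6746 CPM in the others, without overlap (log2 fold change -1.15 ± 0.124, edgeR adjusted p = 2.29e-07). *Fn1*, which encodes fibronectin, averaged 2833 ± 812 CPM against 7121 ± 2495 CPM (-1.30 ± 0.121). *Epyc*, which encodes epiphycan, a proteoglycan of growth plate cartilage, had 10 UMIs in all in *Col10a1*-low cells and was at 41.4 ± 41.8 CPM, against 816 ± 179 CPM in the others. *Clec11a*, *Emilin1*, *Bgn* and *3110079O15Rik* were the other 4 that were lower, of which *Bgn* did not pass at matched depth (-0.07).

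Collagen genes were mostly lower. Of 16 tested, 10 were lower, 2 higher and 4 not called, where 18.8% of all genes were lower and 19.9% higher. Their median log2 fold change was -1.26 against -0.01 over all genes. *Col2a1* ranged from 12290 to 25478 CPM (median 15490) in *Col10a1*-low cells and from 42604 to 66356 CPM (median 47187) in the others, with a log2 fold change of -1.66 ± 0.116 (edgeR adjusted p = 5.06e-10). At matched depth the difference was -0.74. Collagen IX, which decorates collagen II fibrils, was lower in each of its 3 chains: *Col9a1* at 800 ± 537 against 3558 ± 565 CPM, *Col9a2* at 710 ± 159 against 2113 ± 305 CPM and *Col9a3* at 1208 ± 389 against 4730 ± 828 CPM. At matched depth the log2 fold changes of *Col9a1*, *Col9a2* and *Col9a3* were -1.19, -0.68 and -1.05, against -2.27, -1.58 and -2.01. *Col11a1* and *Col11a2*, the genes of the collagen XI chains inside those fibrils, had log2 fold changes of -1.04 and -1.57, and of -0.21 and -0.86 at matched depth, where *Col11a1* did not pass. *Col12a1*, *Col27a1*, *Col6a3* and *Col1a1* were lower as well. At matched depth *Col27a1* was at -0.62 and *Col6a3* at -0.40, which did not pass. The 2 higher genes were *Col5a2*, which encodes a chain of collagen V (464 ± 140 against 132 ± 84.0 CPM, 1.82 ± 0.247, 1.2 at matched depth), and *Col8a2* (236 ± 73.0 against 68.6 ± 41.5 CPM, 1.78 ± 0.294). Both were higher on 8 of 8 plates.

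**Figure D4:**
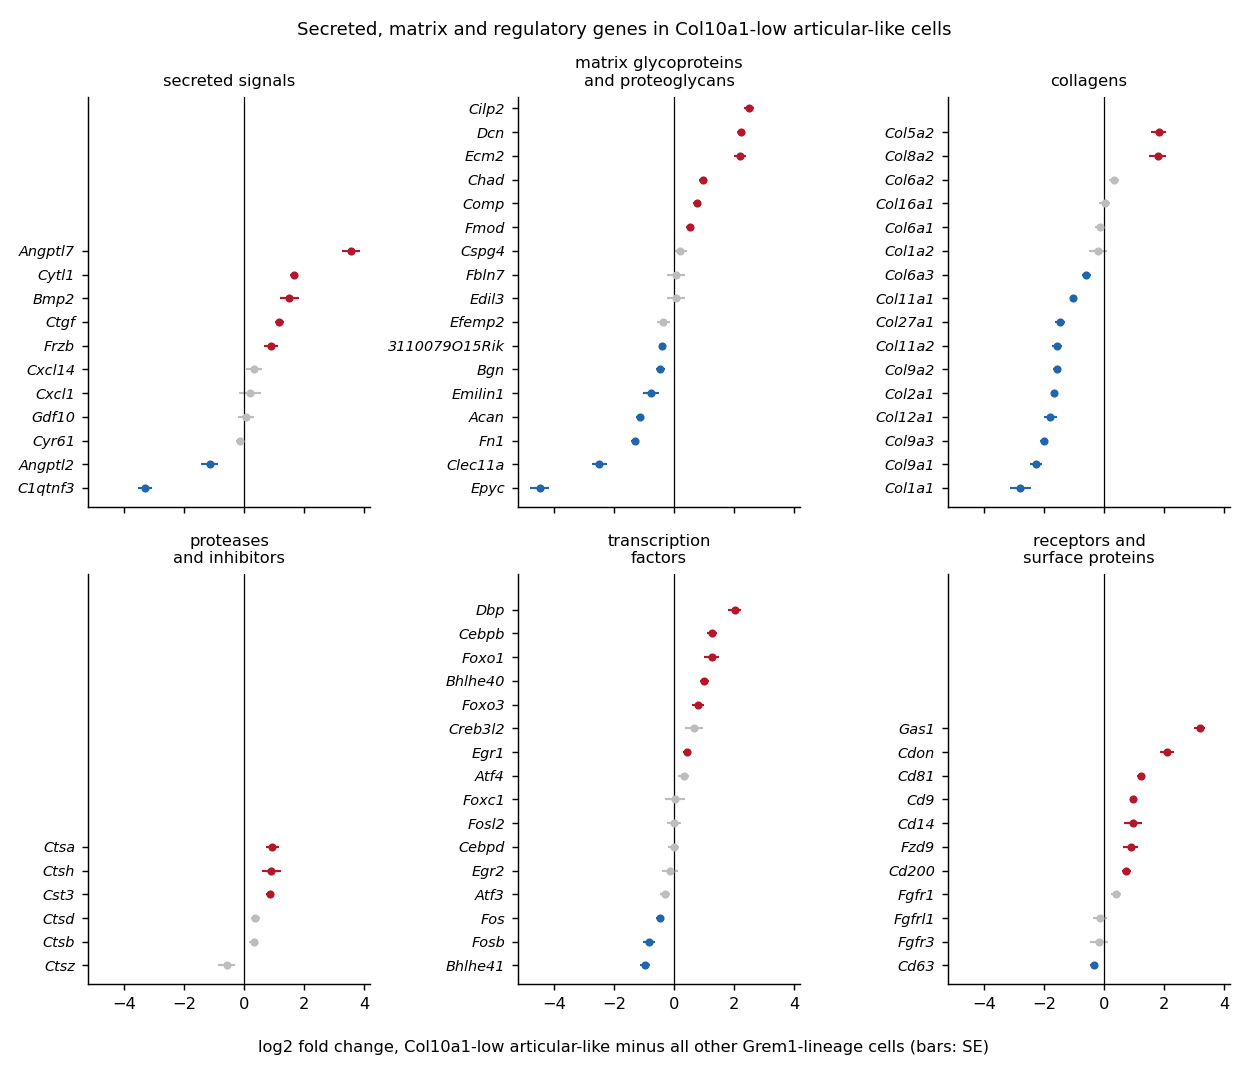
Each point is the edgeR log2 fold change of a tested gene of 6 lists (secreted signals, matrix glycoproteins and proteoglycans, collagens, proteases and inhibitors, transcription factors, receptors and surface proteins), with its SE. Red points passed the threshold and were higher in *Col10a1*-low cells, blue points passed and were lower, and grey points did not pass. Collagens had 10 lower and 2 higher genes, and receptors and surface proteins 7 higher and 1 lower. Of all genes tested, 19.9% were higher and 18.8% lower.

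Of the proteases and their inhibitors, 6 genes could be tested, and 3 were higher, where 19.9% of all genes were higher. *Cst3*, which encodes the protease inhibitor cystatin C, was at 29716 ± 4817 against 17192 ± 6124 CPM (log2 fold change 0.87 ± 0.135), but at -0.35 at matched depth. The cathepsin genes *Ctsa* and *Ctsh* had log2 fold changes of 0.94 and 0.91.

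Among 16 transcription factor genes tested, 6 were higher, 3 lower and 7 not called, where 19.9% of all genes were higher and 18.8% lower. *Dbp*, a clock-controlled bZIP factor, was at 419 ± 153 against 101 ± 26.1 CPM (2.02 ± 0.221, edgeR adjusted p = 2.72e-07). *Cebpb* was at 2226 ± 565 against 944 ± 291 CPM (1.27 ± 0.165), and the circadian repressor *Bhlhe40* at 2612 ± 537 against 1332 ± 422 CPM (1.01 ± 0.146). Its paralogue *Bhlhe41* moved the other way (1558 ± 845 against 3289 ± 1872 CPM, -0.97 ± 0.168) and was lower on 8 of 8 plates. At matched depth, *Cebpb* (0.47), *Bhlhe40* (0.38) and *Bhlhe41* (-0.65) no longer passed. *Foxo1*, a forkhead factor that the study names for AC, was at 248 to 749 CPM (median 404) against 82.2 to 331 CPM (median 184), higher on 7 of 8 plates (1.25 ± 0.241, edgeR adjusted p = 3.74e-04). Its difference at matched depth was 0.39 (edgeR adjusted p = 0.378). *Foxo3* followed at 0.78 ± 0.201 and lost its call without the plate as a block (edgeR adjusted p = 0.147) and at matched depth. Of the immediate early genes, which cell isolation can induce, *Egr1* was higher and *Fos* and *Fosb* were lower, with log2 fold changes of 0.43, -0.46 and -0.84. *Egr1* was at -0.13 at matched depth. With no filter on low counts it was at 0.02, but there the median over the same 980 genes moved by -0.40. Plates 1, 2 and 4 alone gave no call for *Fos* or *Fosb* (-0.09 and -0.16).

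Of 11 receptor and surface protein genes tested, 7 were higher, 1 lower and 3 not called, where 19.9% of all genes were higher and 18.8% lower. Of these 7, *Gas1* and *Cd9* also passed at matched depth. *Gas1*, which encodes a membrane-anchored co-receptor of Hedgehog proteins, had the largest difference of this group. It ranged from 2619 to 6844 CPM (median 4312) in *Col10a1*-low cells and from 226 to 939 CPM (median 436) in all others. No plate of one group reached the other, and the log2 fold change was 3.18 ± 0.185 (edgeR adjusted p = 1.04e-10), or 1.79 at matched depth and 3.08 ± 0.277 when the cells of matched depth were those below the limit alone. *Cdon*, another Hedgehog co-receptor gene, was at 403 ± 164 against 97.1 ± 63.4 CPM and higher on 8 of 8 plates (2.09 ± 0.244, edgeR adjusted p = 6.52e-07). The tetraspanin genes *Cd9* (7964 ± 1149 against 4101 ± 633 CPM) and *Cd81* (2041 ± 461 against 865 ± 129 CPM) were higher without overlap, while *Cd63*, also a tetraspanin gene, was lower (-0.35 ± 0.118), and at 0.03 at matched depth. *Cd81* did not pass at matched depth (0.52, edgeR adjusted p = 0.0594). *Cd200*, a surface glycoprotein used to mark skeletal stem cells, was at 1048 ± 373 against 627 ± 204 CPM (0.73 ± 0.153, edgeR adjusted p = 7.65e-04), and at -0.58 at matched depth, which did not pass (edgeR adjusted p = 0.0801). Thinned to equal UMIs per cell as described below, it was found in 42.9% of *Col10a1*-low and 32.4% of other cells. *Cd14* also turned, with a log2 fold change of 0.96 ± 0.299 over all cells and -0.44 at matched depth (edgeR adjusted p = 0.387). The Wnt receptor gene *Fzd9* was higher by 0.88, and at -0.07 at matched depth. *Fgfr3*, the receptor of FGF18, was at 281 ± 212 against 293 ± 83.0 CPM and showed no detectable difference (-0.17 ± 0.298, edgeR adjusted p = 0.681), with a sign that turned on plates 5 to 9 alone (0.10).

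Other genes with large differences on every plate were *Fhl1*, a LIM-domain protein gene (log2 fold change 2.51 ± 0.270), *Crim1*, which encodes a membrane-bound binder of bone morphogenetic proteins (2.29 ± 0.215, 1.03 at matched depth), *Dab2*, an endocytic adaptor gene (2.21 ± 0.260), and *Ccnd2*, which encodes cyclin D2 (1328 ± 526 against 316 ± 81.7 CPM, 2.04 ± 0.172). *Ccnd2* was at 0.70 at matched depth and did not pass (edgeR adjusted p = 0.0594). *Cp*, the gene of ceruloplasmin, *Carmil1*, *Adgrg2*, *Ddah1* and *Gm13889* were also higher on 8 of 8 plates. At matched depth *Adgrg2* (0.80) and *Gm13889* (0.99) did not pass. In the other direction, *Cdk6*, which encodes a kinase partner of D-type cyclins, was at 151 ± 77.2 against 723 ± 327 CPM (-2.27 ± 0.205). *Fscn1* and *Fam180a* were lower as well, at 56.1 ± 39.2 against 399 ± 64.2 CPM and 55.1 ± 59.0 against 433 ± 174 CPM. *Gm37788*, a transcript that lies within *Rasal2* on the same strand, had 6 UMIs in *Col10a1*-low cells and 756 in the others. *Col10a1*, which the rule reads, overlaps *Nt5dc1* on the other strand. Exons of *Gas1*, *Cp*, *Crim1*, *Adgrg2*, *Dab2*, *Ccnd2*, *Cd9*, *Cd81*, *Cebpb*, *Dbp*, *Bhlhe40*, *Bhlhe41*, *Foxo1*, *Fgfr3*, *Ctsa*, *Cnn3*, *Fxyd3*, *Col9a3*, *Fn1*, *Epyc* and *Cdk6* also overlap a gene on the other strand. On their own strand, *Gm13889* overlaps *Gm27027* and the given marker *Creb5* overlaps *Gm25818*. Strand use in the counting is not stated, so their reads could include those of the partner.

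Most osteoblast and growth plate markers that could be tested were lower than in all other cells, where 18.8% of all tested genes were lower. Of the osteoblast markers tested, 3 of 4 were lower: *Bglap*, which encodes osteocalcin, was at 427 ± 688 against 3048 ± 3348 CPM, *Bglap2* at 116 ± 119 against 1194 ± 1329 CPM and *Col1a1* at 401 ± 441 against 3674 ± 5804 CPM. The *Bglap* genes are near-identical copies, so reads could be split between them. The other cells varied widely between plates in these genes. The summed osteoblast list ran from 929 to 5174 CPM in *Col10a1*-low cells and from 633 to 43817 CPM in the others. The remaining tested marker, *Col1a2*, was not called (-0.22), and at matched depth it was at 0.42, which did not pass. All 3 growth plate and hypertrophic markers that were tested were lower, *Epyc* as above, *Alpl*, the gene of alkaline phosphatase, at 228 ± 173 against 455 ± 170 CPM, and *3110079O15Rik* at 6924 ± 1879 against 8906 ± 1470 CPM. Against *Col10a1*-high cells, no tested marker of either list was called: *Col1a1* was at -0.67, *Col1a2* at 0.80 and *3110079O15Rik* at -0.27 on the log2 scale. Cell cycle genes were too rare to test: 5 are listed, and their sum was 21.8 to 325 CPM against 61.3 to 433 CPM. The complement gene *C4b* was higher (655 ± 601 against 256 ± 163 CPM), and at 0.22 at matched depth. The retinoic acid gene *Dhrs3* was not called.

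To compare detection per cell, cells were thinned to 796 UMIs, which left out 45 *Col10a1*-low and 23 other cells. *Gas1* was then found in 74.4% of 203 *Col10a1*-low cells (95% Clopper-Pearson interval 67.8% to 80.2%) and in 27.1% of 413 others (22.9% to 31.7%). Unthinned, the shares were 83.1% and 38.1%, at median depths of 1117.5 and 1820.5 UMIs, and 1.88% of *Lepr*-lineage cells, at a median of 505 UMIs over the same genes, had a *Gas1* UMI. *Cilp2* was found in 65.5% and 23.2% of thinned cells, *Cdon* in 27.6% and 7.99%, and *Angptl7* in 15.3% and 5.57%. *Creb5* and *Abi3bp* were found in 24.6% and 12.8%, and in 44.8% and 18.2%. *Foxo1* was found in 23.6% and 16.9%, and *Fgfr3* in 16.7% and 21.1%, so that both differed less than the genes above. Cells of all plates were pooled for these shares, and the groups drew on the plates in different shares. The shares thus differ by plate as well as by group, and the intervals leave out the spread between plates.

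The *Col10a1*-high cells are the most similar group, since they passed the same limits on *Clu*, *Cilp*, *1500015O10Rik* and *Cnmd*. They were compared on plates 5 to 9, which held at least 10 of each, and 18 of 237 genes differed (7.59%), 6 higher (2.53%) and 12 lower (5.06%) in *Col10a1*-low cells. *Fmod* was at 4421, 3854, 3140, 2918 and 3043 CPM in *Col10a1*-low cells of plates 5 to 9, and at 202, 616, 478, 1088 and 789 CPM in *Col10a1*-high cells. The groups did not overlap (log2 fold change 2.48 ± 0.308, edgeR adjusted p = 1.89e-04, 3.10 at matched depth), which was so for 15 of the 237 genes (6.33%). *Cnn3*, which encodes calponin 3, an actin-binding protein, was at 689, 712, 749, 493 and 747 CPM against 202, 88.0, 319, 142 and 132 CPM (1.89 ± 0.341, edgeR adjusted p = 3.20e-03). *Ecm2*, *Crim1*, *Apoe* and *Comp* were higher as well, by 1.59, 1.10, 0.92 and 0.74. *Ecm2* and *Crim1* lost their call without plate 5, 8 or 9, *Apoe* without plate 5, 6 or 7, and *Comp* without plate 5, 6, 8 or 9.

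The gene with the lowest p on the other side was *Fn1*, at 3406, 2974, 2506, 2343 and 2936 CPM in *Col10a1*-low cells against 11792, 8934, 8959, 8040 and 9210 CPM in *Col10a1*-high cells (-1.73 ± 0.152, edgeR adjusted p = 6.32e-06). *Fxyd3*, a regulator of sodium pumps, was at 254, 209, 230, 206 and 374 CPM against 1159, 1012, 956, 899 and 1250 CPM (-2.03 ± 0.262). *Ddit4l*, an inhibitor of mTOR signalling, had a log2 fold change of -2.02 ± 0.352. *Cst3* was at 25911, 26055, 23966, 30579 and 29998 CPM against 59515, 59108, 49536, 40578 and 64471 CPM (-0.99 ± 0.168), and *Cd200* at 942, 922, 1123, 1439 and 934 CPM against 2620, 2201, 1792, 1939 and 1710 CPM (-0.93 ± 0.209). *Chad* was lower too (-0.66 ± 0.182), as was *Cd14* (444 ± 213 against 1468 ± 847 CPM, -1.59 ± 0.376). Over 8 plates, *Cst3*, *Cd200*, *Chad* and *Cd14* were above the level of all other cells, which include *Col10a1*-high cells. At matched depth none of these genes passed against all other cells (-0.35, -0.58, 0.05 and -0.44). On plates 5 to 9 they were below the level of *Col10a1*-high cells. *Acan* (-0.78), *Anxa8* (-0.85) and the early response gene *Btg2* (-0.90) were lower without overlap. *Cd200* lost its call without plate 5, *Btg2* without plate 5 or 8, *Chad* without plate 5, 7 or 9, and *Anxa8* without any 1 of the plates. At matched depth, 8 of 206 genes differed on the 3 plates with enough cells. *Fmod*, *Cnn3*, *Fxyd3*, *Fn1*, *Cst3*, *Cd200* and *Chad* passed there, *Crim1*, *Apoe*, *Comp*, *Acan*, *Anxa8*, *Btg2* and *Cd14* did not, and *Ecm2* and *Ddit4l* have no value. *Col2a1* (14588 ± 4023 against 11946 ± 4724 CPM) and *Foxo1* (420 ± 176 against 468 ± 182 CPM) showed no detectable difference. The direction for *Foxo1* turned without plate 9 (0.14). *Cytl1* (150996 ± 31066 against 175781 ± 25527 CPM), *Dcn* (21719 ± 4435 against 24845 ± 779 CPM), *Cilp2*, *Angptl7*, *Gas1* and *Cdon* were not called either, with edgeR adjusted p from 0.0509 for *Gas1* to 0.759 for *Cdon*. The high level of *Cytl1* and *Dcn* was thus found in *Col10a1*-high cells too.

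**Figure D5:**
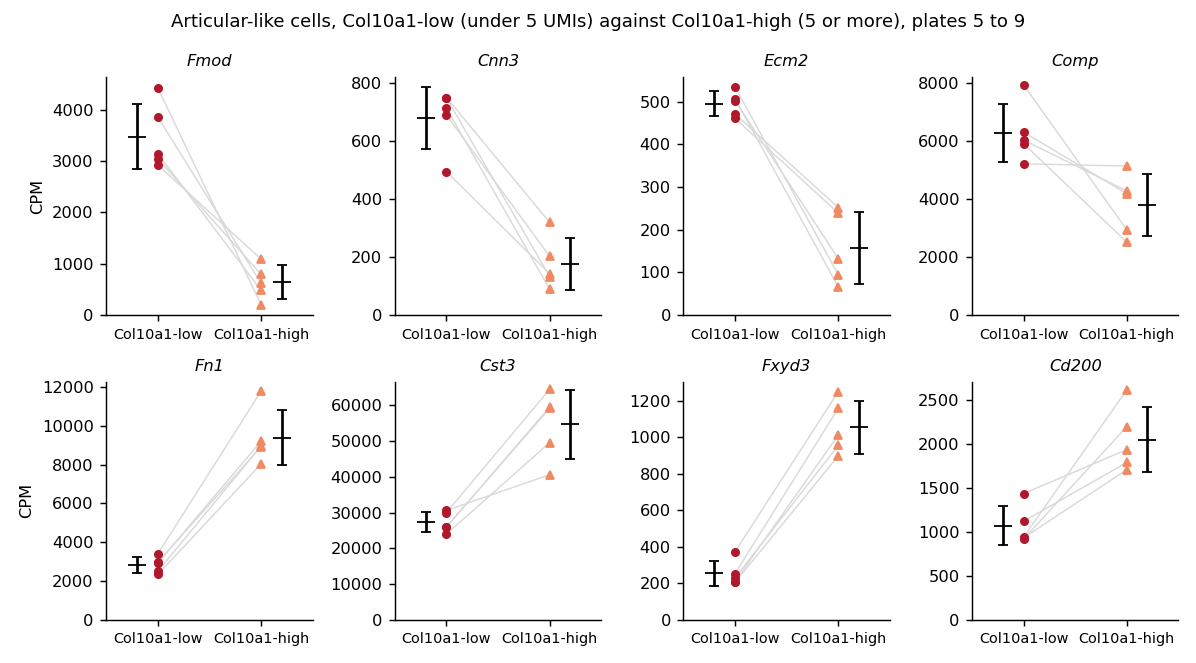
Each panel gives the CPM of a gene (linear axis from 0) in *Col10a1*-low and *Col10a1*-high cells of plates 5 to 9, with a line joining the sums of a plate and bars for mean ± SD. *Fmod*, *Cnn3*, *Ecm2* and *Comp* were higher in *Col10a1*-low cells and *Fn1*, *Cst3*, *Fxyd3* and *Cd200* lower, without overlap.

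Against the cells below the limit alone, 419 of 959 genes differed (43.7%), 226 higher (23.6%) and 193 lower (20.1%). This comparison shares its *Col10a1*-low sums with the first, and most of its compared cells. The log2 fold change of *Gas1* was 4.52, that of *Dcn* 3.25 and that of *Cytl1* 2.36, against 3.18, 2.22 and 1.66 when *Col10a1*-high cells were among those compared. At matched depth, on 7 plates, 42 of 270 genes differed, and *Gas1* (3.08), *Dcn* (2.12) and *Cilp2* (1.61) still passed, while *Cytl1* (0.86, edgeR adjusted p = 0.0848) and *Ecm2* (0.68, edgeR adjusted p = 0.124) did not.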

How the data were processed

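Single sorted cells were sequenced from Nextera XT libraries on a NextSeq 500. The deposited values are whole-number UMI counts per gene and well, made by the authors with UMI-tools, STAR, featureCounts and SAMtools on mm10, and Seurat is also named in the submitters' processing notes. For these plates, the versions of the counting tools, the annotation and strand use are not given in the sources used here. The *Grem1* table held 29183 complete gene rows and 1 incomplete row, which was dropped. Of its symbols, 97.2% matched the GRCm38 annotation.

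The members and gene lists were chosen with earlier results of these data known. Wells with at least 350 genes were kept (684 of 768). No doublet caller was run, since each well received 1 sorted cell. The 8 plates carry the same set of well barcodes, and no 2 columns were identical. Because the wells of a plate share its library, counts were summed per plate and cell group where a sum had at least 10 cells, and p-values measure the spread between plates, which may be technical. Sums were compared with edgeR 4.0.16 in R 4.3.3 (quasi-likelihood test, TMM, filterByExpr, plate as a block, Benjamini-Hochberg adjustment, threshold 0.05), after a check on simulated data. SE is the log2 fold change over the root of F. The groups of a plate are cells of 1 plate, which is where the pairing comes from: deviations from the group means correlated within plates (mean r 0.275, over 0.1 on 8 of 8 plates). Between plates the mean was -0.0428. Centring each group on its mean makes that value slightly negative when the value within plates is positive, so it adds nothing on pairing. Against *Col10a1*-high cells the mean within plates was 0.0820, over 0.1 on 2 of 5 plates, and against cells below the limit 0.255.

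Named genes were those of the rule and its given markers, the 15 in each direction with the largest log2 fold change among calls of the same direction on every plate with at least 50 CPM in the higher group (10 against *Col10a1*-high cells), up to 5 calls per list and direction, and a few that the study names. Genes given in addition were chosen after their values were seen. Alternatives were DESeq2 1.42.0, its size factors, no filter on low counts, no block, other limits in the rule, sums of at least 5 cells, rule genes left out of library sizes, matched depth, subsets of plates and each plate left out. Shares carry 95% Clopper-Pearson intervals, which with the limit of 3 counts for a share of 0 cover counting error only. Promoter sequences are from RefSeq, and 9 of 12 genes looked up had one.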

Additional observations from a re-analysis of the deposited data

Results flagged for a closer look

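Of 94 groups of plates examined, 13 held a plate far from the others, where chance gives about 1 in 20. In *Col10a1*-low cells, plate 9 was high for *Bglap* (2063 CPM, median of plates 196), *Col2a1* (25478 CPM, median 15490), *Col9a1* (2096 CPM, median 646) and *Flywch2* (262 CPM, median 10.9). On plate 8, *Comp* was at 9032 CPM and *Gm11225* at 562 CPM, against medians of 7064 and 229 CPM. On plate 7, *2700038G22Rik* was high at 180 CPM (median 16.4) and *Ctsa* low at 216 CPM (median 378). *Cp* was high on plate 6 (992 CPM, median 407) and *Gm13889* on plate 1 (4883 CPM, median 1262). In the sums set against *Col10a1*-high cells, *Btg2* was low on plate 6 (2178 CPM, median 4297), *Cnn3* low on plate 8 (493 CPM, median 712) and *Fxyd3* high on plate 9 (374 CPM, median 230).

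Among the 84 wells left out for having fewer than 350 genes, 43 met the limits on UMIs that define *Col10a1*-low cells. They enter no comparison above.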

How the results depend on the processing

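Against all other cells, 379 genes differed, but 34 (20 higher, 14 lower) at matched depth, 638 (150 higher, 488 lower of 12507) with no filter on low counts, 232 with a summed share of at least 4% and 224 on plates 5 to 9 alone. With no filter, the median log2 fold change moved by -0.40. DESeq2 called 276 genes, the fit with no replicate block 304, and leaving out 1 plate gave 299 to 349. Against *Col10a1*-high cells (18 genes), 6 differed at a share of at least 4%, 8 at matched depth, 18 with no replicate block, 13 with DESeq2 and 7 to 22 with 1 plate left out, 7 without plate 5 and 11 without plate 8. Plates 1, 2 and 4 alone could not be fitted there, having fewer than 10 *Col10a1*-high cells each. Against cells below the limit (419 genes), 774 differed with no filter (194 higher, 580 lower; median moved by -0.48), 257 at a share of at least 4% (median moved by -0.12), 42 at matched depth, 252 on plates 5 to 9, 271 on plates 1, 2 and 4, 358 with no replicate block, 315 with DESeq2 and 332 to 385 with 1 plate left out. At matched depth the medians moved by -0.10 against all other cells and by -0.12 against cells below the limit, each with fewer cells and fewer tested genes. Against all other cells, *Col10a1*-high cells were also a larger part of those compared. The part of depth alone was not tested in either. An alternative chosen after seeing the data, comparing only cells with *Cnmd* above the summed UMIs, gave 430 of 845 genes. The mean share of *Col10a1*-low cells was 22.0% at a limit of 4%, and 33.1% to 38.0% with 1 plate left out. The log2 difference in UMIs per cell was -0.73 to -0.67 with 1 plate left out.

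Of the log2 fold changes of named genes under the alternatives, 1809 kept their direction and side of the threshold, 134 lost their call and 13 turned. This total includes alternatives close to the main fit, such as sums of at least 5 cells, where 87 were kept and none changed. At matched depth, 28 were kept, 19 lost their call and 7 turned, and named genes without a value there are not counted. Those that turned there were *Egr1* (-0.13), *Frzb* (-0.66), *Cst3* (-0.35), *Cd14* (-0.44), *Cd63* (0.028) and *Cd200* (-0.58, and -0.22 against cells below the limit). *Foxo1* against *Col10a1*-high cells turned with *Col10a1* under 10 UMIs (0.18), with *Col10a1* under 0.3% of UMIs (0.20) and without plate 9 (0.14), and lay between -0.38 and 0.14 with 1 plate left out. *Fgfr3* turned without plate 5 (-0.45 to 3.1e-05 with 1 plate left out) and on plates 5 to 9 (0.10, and 0.15 against cells below the limit). The cause was not tested in any of these.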
